A study of Mus musculus with 8 samples.

Results

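Smooth muscle and actin anchoring genes were followed in cultured sacral neural crest cells of the mouse. The genes were chosen by name: the regulator Myocd, the contractile apparatus and cytoskeleton genes Myh11, Mylk, Des and Lmod1, the actin-associated genes Csrp1 and Cnn2, and the anchoring genes Actn1 and Vcl. Of these 9 genes, 8 were measured by a probe set with a single gene symbol, out of 6855 genes tested, and Myh11 was not analysed here. Each of the 8 had 1 such probe set.

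The study compared cells with 2 Dom copies of Sox10 (Dom/Dom) with wild-type cells, on 4 Affymetrix Mouse Gene 1.0 ST arrays per genotype, numbered 1 to 4. Sox10 encodes a transcription factor of the neural crest, and the Dom allele, carried here in every cell of the embryo, has a shifted reading frame. Explants of sacral neural tube (behind somite 24, embryonic day 9.5) were kept in medium with 10% serum and removed after 24 hours, and the emigrated cells gave the RNA. The same culture conditions held for both genotypes. The labels do not say how many embryos went into a sample or whether same-genotype samples came from separate embryos, so the spread behind each p-value is that among these samples and may in part be technical. In RNA of a whole culture, fewer cells of a type and less RNA per cell cannot be told apart.

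Smooth muscle cells contract when myosin light chain kinase activates their myosin, and their actin filaments are held at the membrane and at dense bodies by anchoring proteins. Many genes of this apparatus carry a CArG box, the DNA element bound by serum response factor (SRF), and myocardin and the related factors MRTF-A and MRTF-B act as coactivators of SRF. Neural crest cells are multipotent: beside neurons, glia and pigment cells they can give rise to smooth muscle, and migrating crest cells use actin anchoring proteins at their adhesions.

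Of the 8 genes, 0 passed the threshold of 0.05 on the adjusted p between genotypes (limma, Benjamini-Hochberg over 6855 genes), where 0.481% of all genes did and 0.0729% did so as higher in Dom/Dom. At an unadjusted p under 0.05, 3 of the 8 were higher in Dom/Dom, against 2.22% of all genes. With the replicate number as a block, 0 of the 8 passed, against 1.5% of all genes. All 8 differences of the means lay above 0, as did 49.6% of all genes, and their median was 0.14 on the log2 scale, against -0.00095 over all genes (0.076 against -0.062 with arrays centred on their median). The largest difference was that of Myocd and the smallest that of Mylk.

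The sequences before the start of 3 genes are shown because 2 of them, Cnn2 and Vcl, hold the CArG box to which the myocardin family is tied, and because Des had the largest difference among the genes with a promoter sequence and holds none in this window. RefSeq promoter sequences (assembly GRCm38.p6) matched 7 of the 8 genes, all but Myocd. The 250 bases before the start are printed 5′ to 3′. Capitals mark the CArG box in Cnn2 and Vcl and both matches to the E-box letters CANNTG in Des.
Cnn2 (chr10:79988350-79988599, plus strand): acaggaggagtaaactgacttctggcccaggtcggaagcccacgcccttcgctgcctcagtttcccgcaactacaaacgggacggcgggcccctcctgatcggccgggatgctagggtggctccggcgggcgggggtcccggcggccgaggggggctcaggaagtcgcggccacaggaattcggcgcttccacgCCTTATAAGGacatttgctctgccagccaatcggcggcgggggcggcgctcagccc
Vcl (chr14:20929148-20929397, plus strand): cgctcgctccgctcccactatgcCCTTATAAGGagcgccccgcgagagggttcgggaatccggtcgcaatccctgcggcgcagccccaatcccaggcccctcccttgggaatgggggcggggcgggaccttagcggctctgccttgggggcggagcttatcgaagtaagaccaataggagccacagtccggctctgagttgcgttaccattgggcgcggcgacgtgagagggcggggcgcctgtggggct
Des (chr1:75360042-75360291, plus strand): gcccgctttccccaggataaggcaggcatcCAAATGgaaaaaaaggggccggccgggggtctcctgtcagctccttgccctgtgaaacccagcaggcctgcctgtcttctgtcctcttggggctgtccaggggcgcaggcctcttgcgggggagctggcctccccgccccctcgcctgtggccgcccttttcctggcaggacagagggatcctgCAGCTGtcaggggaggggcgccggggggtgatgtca

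The CArG box had the same 10 letters, CCTTATAAGG, in both genes. It spanned positions -56 to -47 from the start of Cnn2 and -227 to -218 from that of Vcl. Over windows of 250 bases before to 50 after the start, searched on both strands, 1.63% of 32851 promoter windows held a CArG box. The TEAD letters CATTCC were found in Lmod1, Mylk and Vcl and in 14.7% of windows, and CANNTG in 5 of the 7 genes and in 72.3% of windows. The SOX letters ACAAAG were found in 1 of 2 windows of Csrp1, at positions -21 to -16, and in 18.7% of windows. In Cnn2 a CANNTG match lay at -45 to -40 and did not overlap the CArG box. A match describes letters only and shows no binding.

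Myocd encodes myocardin, the coactivator of SRF found in smooth muscle and heart. Its level (log2 expression, probe set 10386996) was 10.24, 10.29, 10.81 and 11.05 in Dom/Dom replicates 1 to 4, against 10.04, 9.57, 10.06 and 10.19 in wild-type replicates 1 to 4. The genotypes did not overlap, though Dom/Dom replicate 1 lay close to wild-type replicate 4. It averaged 10.60 ± 0.40 in Dom/Dom cells and 9.97 ± 0.27 in wild-type cells (SD, n = 4), which is 1.55-fold higher in Dom/Dom. The difference was 0.63 with a standard error of 0.19 and a 95% interval of 0.20 to 1.06 (limma adjusted p = 0.353). With the replicate block the adjusted p was 0.0507, and without pair 1 in that fit, an alternative added after seeing the data, it was 0.00266. Within replicates 3 and 4 alone the difference was 0.80 (limma adjusted p = 0.00739), and within replicates 1 and 2 alone it was 0.46 (adjusted p = 1). Those 2 sets also differed within each genotype, as the mean of replicates 3 and 4 was above that of replicates 1 and 2 by 0.67 in Dom/Dom and by 0.32 in wild type.

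Mylk encodes myosin light chain kinase, whose activity sets off smooth muscle contraction. Its level was 8.88, 8.78, 8.71 and 8.48 in Dom/Dom replicates 1 to 4, against 8.69, 8.64, 8.65 and 8.62 in wild type. The Dom/Dom arrays spread on both sides of the wild-type arrays, with replicate 4 the lowest of all 8. The difference was 0.063 ± 0.093 (standard error), with a 95% interval of -0.14 to 0.27 (limma adjusted p = 1.00), and within replicates 3 and 4 alone it was -0.037.

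Des encodes desmin, the intermediate filament protein of smooth, skeletal and cardiac muscle. Its level was 9.84, 10.33, 9.98 and 9.98 in Dom/Dom replicates 1 to 4, against 9.79, 9.53, 9.72 and 9.66 in wild type. The genotypes did not overlap, and Dom/Dom replicate 2 stood highest. It averaged 10.03 ± 0.21 in Dom/Dom cells and 9.68 ± 0.11 in wild-type cells (SD, n = 4), a difference of 0.36 with a 95% interval of 0.11 to 0.60 (limma adjusted p = 0.371), or 1.28-fold. Myocd and Des were the 2 of the 8 genes whose groups did not overlap, against 1.18% of all genes that did not overlap in this direction.

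Lmod1 encodes leiomodin 1, an actin filament nucleator of smooth muscle. Its level was 8.94, 8.86, 8.95 and 8.88 in Dom/Dom replicates 1 to 4, against 9.06, 8.63, 8.81 and 8.76 in wild type. The Dom/Dom arrays lay within 0.1 of each other, while wild-type replicate 1 was the highest and wild-type replicate 2 the lowest of all 8. The difference of 0.093 had a 95% interval of -0.12 to 0.31 (limma adjusted p = 1.00).

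**Figure D1:**
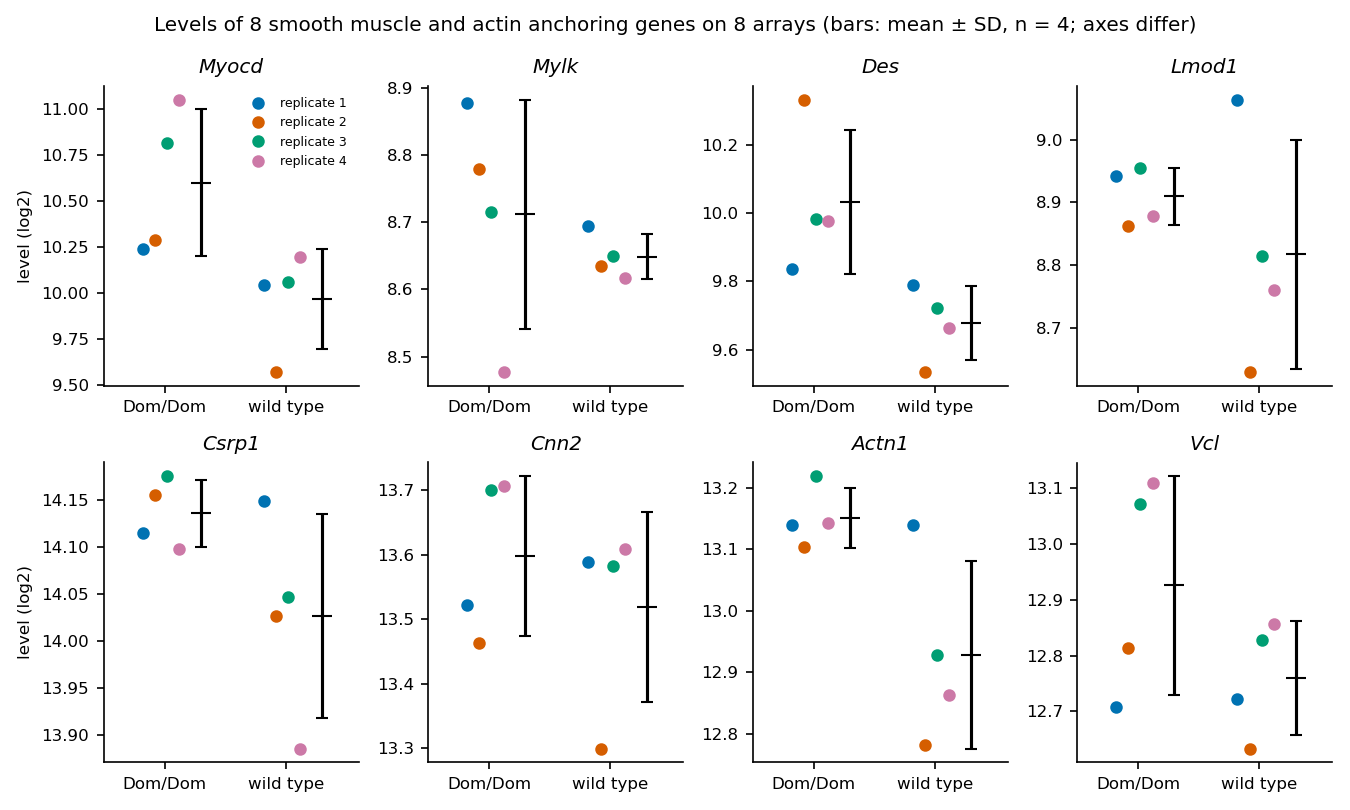
Log2 levels of the 8 genes on each array, with Dom/Dom left of wild type in each panel; points are arrays, coloured by replicate number, and bars show the mean ± SD (n = 4). The vertical axes differ between panels and do not start at 0. Myocd and Des have no overlap between genotypes, and wild-type replicate 2 is the lowest array in 6 of the 8 panels.

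Csrp1 encodes a LIM domain protein that binds alpha-actinin and zyxin on actin bundles. Its level was 14.12, 14.16, 14.17 and 14.10 in Dom/Dom replicates 1 to 4, against 14.15, 14.03, 14.05 and 13.89 in wild type. The groups overlapped through wild-type replicate 1 alone. The difference was 0.11, with a 95% interval of -0.064 to 0.28 (limma adjusted p = 1.00).

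Cnn2 encodes calponin 2, an actin-binding protein of smooth muscle and of migrating non-muscle cells. Its level was 13.52, 13.46, 13.70 and 13.71 in Dom/Dom replicates 1 to 4, against 13.59, 13.30, 13.58 and 13.61 in wild type. Both genotypes held overlapping values, and in Dom/Dom replicates 3 and 4 stood above replicates 1 and 2. The difference was 0.078, with a 95% interval of -0.14 to 0.29 (limma adjusted p = 1.00), and without wild-type replicate 2 it was 0.0048.

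Actn1 encodes alpha-actinin 1, which crosslinks actin filaments at focal adhesions and along stress fibres. Its level was 13.14, 13.10, 13.22 and 13.14 in Dom/Dom replicates 1 to 4, against 13.14, 12.78, 12.93 and 12.86 in wild type. Dom/Dom arrays were close together, and wild-type replicate 1 lay among them while the other 3 wild-type arrays lay below. It averaged 13.15 ± 0.05 in Dom/Dom cells and 12.93 ± 0.15 in wild-type cells (SD, n = 4), a difference of 0.22 with a 95% interval of 0.026 to 0.42 (limma adjusted p = 0.645; 0.0225 with the replicate block and without pair 1).

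Vcl encodes vinculin, which links talin and alpha-catenin to actin at cell-matrix and cell-cell adhesions. Its level was 12.71, 12.81, 13.07 and 13.11 in Dom/Dom replicates 1 to 4, against 12.72, 12.63, 12.83 and 12.86 in wild type. The genotypes overlapped, and in both of them replicates 3 and 4 stood above replicates 1 and 2, by 0.33 in Dom/Dom and 0.16 in wild type. The difference between genotypes was 0.17, with a 95% interval of -0.069 to 0.40 (limma adjusted p = 1.00).

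Set side by side by replicate number, the median over the 8 genes was near 0 in pair 1 and above 0 in the other pairs, while Mylk had its highest difference in pair 1 (0.18) and lay below 0 in pair 4 (-0.14). In pair 1 (Dom/Dom minus wild type of the arrays numbered 1), 4 of 8 genes were higher in Dom/Dom, with a median of -0.0063 and a range from -0.12 in Lmod1 to 0.20 in Myocd. In pair 2 all 8 were higher (median 0.21), in pair 3 all 8 (median 0.19) and in pair 4 all but Mylk (median 0.23). With arrays centred on their median, 2, 8, 7 and 5 of the 8 were higher in pairs 1 to 4 (medians -0.082, 0.26, 0.10 and 0.10, against -0.087, 0.071, -0.10 and -0.13 over all genes), and with quantile normalization 3, 8, 7 and 6 were. Over all 6855 genes the medians of pairs 1 to 4 were -0.011, 0.020, -0.014 and 0.00070, and 46.8%, 56.5%, 46.2% and 50.1% of genes were higher in Dom/Dom.

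With its sign, the difference was lowest in pair 1 in 7 of the 8 genes, all but Mylk. The differences of Myocd were 0.20, 0.72, 0.75 and 0.85 in pairs 1 to 4, those of Des 0.047, 0.80, 0.26 and 0.31, and those of Actn1 0.00080, 0.32, 0.29 and 0.28. These 3 genes were higher in Dom/Dom in all 4 pairs, as were 10.4% of all genes. Of the 8 genes, 7 were higher in pairs 2, 3 and 4, as were 23.1% of all genes.

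**Figure D2:**
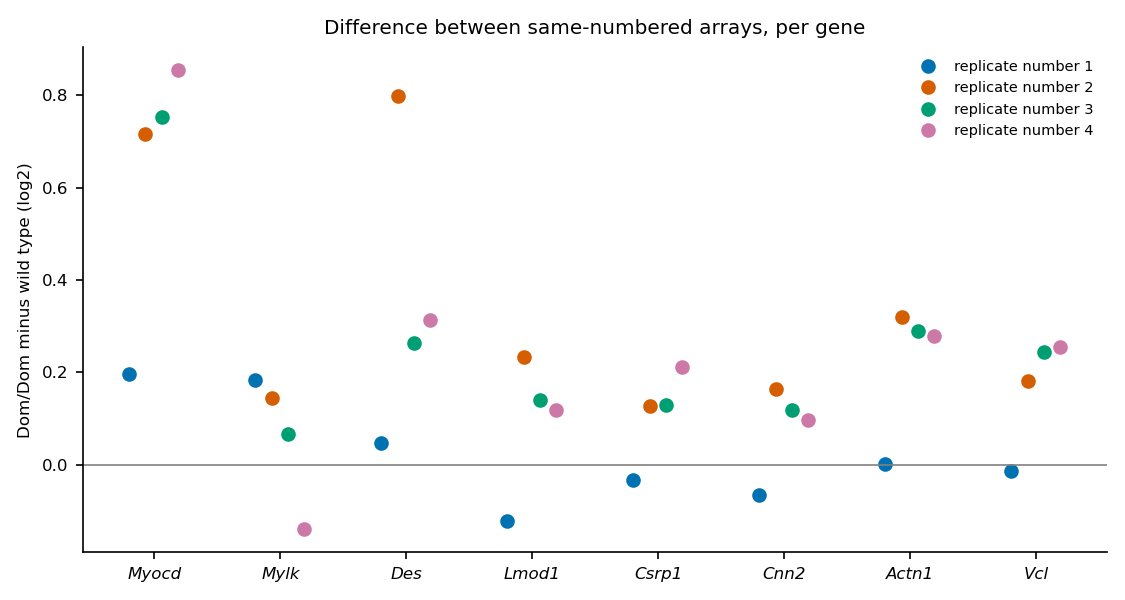
Log2 difference, Dom/Dom minus wild type, for each pair of same-numbered arrays, by gene; each point is 1 pair, coloured by replicate number, and the grey line marks 0. The pair 1 points lie between -0.12 and 0.20, and those of pairs 2 to 4 lie above 0 in every gene except Mylk, which is at -0.14 in pair 4.

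Single arrays stood out in the levels too. Wild-type replicate 2 was the lowest of the 8 arrays in 6 of the 8 genes, with Mylk and Csrp1 the exceptions. Wild-type replicate 1 was the highest wild-type array in 5 of the 8, and its mean deviation over the 8 genes, each centred on its own mean, was -0.0018, against -0.26, -0.071 and -0.095 in wild-type replicates 2 to 4. In Dom/Dom replicates 1 to 4 that mean was 0.022, 0.074, 0.18 and 0.15. Without wild-type replicate 2 the differences of Myocd, Des and Actn1 were 0.50, 0.31 and 0.17. Whether this array sets the shared pattern was not tested, beyond these values.

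The relatives of the 8 genes were taken from a list of paralogs and binding partners, of which 8 of 24 were measured. Of these, 0 passed the threshold without or with the replicate block, and 6 differences lay above 0. The median was 0.079 (0.018 with arrays centred on their median, where that over all genes was -0.062). Actn2, the alpha-actinin of sarcomeres, averaged 9.25 ± 0.28 in Dom/Dom cells and 8.93 ± 0.09 in wild-type cells (SD, n = 4; difference 0.32, limma adjusted p = 0.644). Mylk4, a kinase of the myosin light chain kinase family, differed by 0.34 (limma adjusted p = 0.467). Csrp2, the paralog of Csrp1 known from vascular smooth muscle, differed by 0.036 (95% interval -0.12 to 0.19), and by -0.025 with arrays centred on their median.

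The nonmuscle myosin heavy chains Myh9 and Myh10 differed by 0.091 and 0.15, and Myh9 by 0.22 with its probe sets averaged, by 0.030 with arrays centred on their median and by 0.0029 within replicates 1 and 2. Mrtfa and Mrtfb, which encode the myocardin-related coactivators, differed by 0.066 and -0.043, with 95% intervals of -0.22 to 0.35 and -0.48 to 0.40. The difference of Mrtfa was -0.0017 without Dom/Dom replicate 1, and that of Mrtfb reached 0.089 without wild-type replicate 1. Ctnna3, a cardiac alpha-catenin, differed by -0.020, and by 0.039 without wild-type replicate 1. The adjusted p of each of these 5 genes was 1.00. The difference between Myocd and its relatives was not tested.

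**Figure D3:**
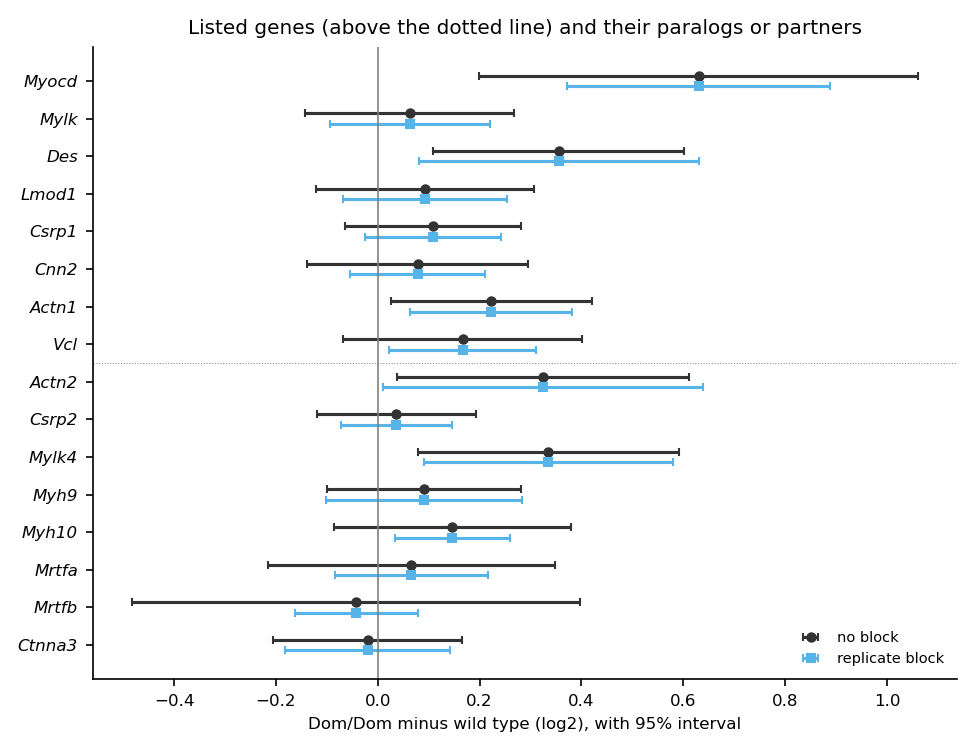
Log2 differences, Dom/Dom minus wild type, with 95% intervals, for the 8 genes (above the dotted line) and the 8 measured paralogs or partners (below it); black circles are from the fit without a block and blue squares from the fit with the replicate block. Without a block, the intervals of Myocd, Des, Actn1, Actn2 and Mylk4 lie above 0, none of them past the adjusted threshold.

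Beyond these genes, the wider apparatus was described with lists fixed by name. Of 13 measured smooth muscle contractile genes, of 32 listed, 0 passed without or with the block and 9 differences lay above 0. Their median was 0.093 (0.032 with arrays centred on their median and 0.036 with quantile normalization, against -0.062 and -0.045 over all genes). The 10 of them that are not among the 8 genes above had a median of 0.074, with 6 above 0. Kcnmb1, the beta subunit of the calcium-activated potassium channel of smooth muscle, had the largest difference (0.44; 9.08 ± 0.27 in Dom/Dom cells and 8.63 ± 0.20 in wild-type cells, SD, n = 4; limma adjusted p = 0.393).

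Of 16 measured focal adhesion and anchoring genes, 0 passed in either fit and 12 lay above 0. Their median was 0.093 (0.032 with centring, against -0.062 over all genes). Tns1, which encodes tensin 1 of fibrillar adhesions, differed by 0.25 (limma adjusted p = 0.951, and 0.0707 with the replicate block). With its probe sets averaged it differed by 0.077. Of 10 genes of actin, tropomyosin and myosin motors, 0 passed in either fit and 9 lay above 0, with a median of 0.091 (0.030 with centring). The formin gene Diaph3 differed by 0.31 (limma adjusted p = 0.652).

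Of 12 measured regulators of smooth muscle, 0 passed without a block. The median was 0.060 (-0.0012 with arrays centred on their median, against -0.062 over all genes). With the replicate block 1 rose and 1 fell, against 0.452% and 1.05% of all genes that did. Mef2c, a MADS box factor of muscle and of the neural crest, was lower in each Dom/Dom array than in its same-numbered wild-type array, by differences of -1.50, -0.65, -1.04 and -0.85 (mean -1.01, limma adjusted p = 0.177; 0.0221 with the block). Prrx1, a homeobox gene of mesenchyme, was higher in all 4 pairs (mean 0.44, limma adjusted p = 1.00; 0.0339 with the block). Myocd and Mef2c thus pointed in opposite directions in all 4 pairs.

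Markers of other muscle were listed as well. Of 19 measured skeletal and cardiac muscle genes, of 40 listed, 17 lay above 0, with medians of 0.0051, 0.19, 0.20 and 0.45 in pairs 1 to 4 and 0.21 over the arrays. Their mean level ran from 8.42 to 8.90 in Dom/Dom arrays and from 8.40 to 8.48 in wild-type arrays. Without a block 0 passed, and with it 1 of the 19 rose, against 0.452% of all genes: Myl1, a light chain of skeletal myosin (9.24 ± 1.08 in Dom/Dom cells and 7.97 ± 0.56 in wild-type cells, SD, n = 4; difference 1.26, limma adjusted p = 0.552; 0.0400 with the block). Des and Myocd are also expressed in striated muscle lineages, and the part of such cells in their differences was not tested. The values came without detection calls, so no marker could be called absent.

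Of 14 measured fibroblast and mesenchyme genes, 11 lay above 0 (median 0.10, and 0.041 with centring), with a median of 0.0038 in pair 1 and 0.15, 0.19 and 0.22 in pairs 2 to 4. Their mean level ran from 9.78 to 10.18 in Dom/Dom and from 9.68 to 9.94 in wild type. Prrx1 was the 1 of the 14 that rose with the block, against 0.452% of all genes. Of 6 pericyte and mural genes, 4 lay above 0, with mean levels of 9.28 to 9.70 in Dom/Dom and 9.06 to 9.47 in wild type. Their median was 0.047. It was -0.014 with arrays centred on their median and -0.018 with quantile normalization, against -0.062 and -0.045 over all genes. Rgs5, a pericyte regulator of G protein signalling, was higher in all 4 pairs (11.10 ± 0.65 in Dom/Dom cells and 10.21 ± 0.59 in wild-type cells, SD, n = 4; difference 0.90, limma adjusted p = 0.583; 0.00358 with the block). Rgs5 was the 1 of the 6 that rose with the block, against the same 0.452% of all genes. The part of mesenchymal or mural cells in the differences of the 8 genes was not tested.

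In the endothelial, neuronal and epithelial lists most differences lay below 0. With the replicate block 0 endothelial, 1 neuronal and 1 epithelial gene fell, against 1.05% of all genes. Of 5 endothelial genes 1 lay above 0 (median -0.027), with mean levels of 8.01 to 8.18 in Dom/Dom and 8.05 to 8.20 in wild type. Their largest differences were those of Cldn5, a tight junction gene (-0.085, limma adjusted p = 1.00), and Pecam1 (-0.031, adjusted p = 1.00; 0.020 without wild-type replicate 4). Of 9 neuronal genes 0 lay above 0 (median -0.22, and 0.37 in pair 1), and Pou4f1, a sensory neuron factor, fell with the block (difference -0.64, limma adjusted p = 0.201; 0.00744 with the block). Of 9 epithelial genes 1 lay above 0 (median -0.20), and the keratin gene Krt8 fell with the block (-0.50, adjusted p = 0.232; 0.0164 with the block).

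Neural crest genes were measured to check the labelled cells: of 14, 3 fell, Sox10, Erbb3 and Cdh19, against 0.408% of all genes, and with the block Tfap2a and Cdh6 fell as well, 5 of 14 against 1.05% of all genes. Sox10 averaged 10.50 ± 0.40 in Dom/Dom cells and 11.69 ± 0.18 in wild-type cells (SD, n = 4; difference -1.20, limma adjusted p = 0.0168; 0.0607 to 0.0762 without any 1 array of replicates 3 and 4). In pair 1, where the median over the 8 genes was nearest to 0, Sox10 had its largest difference, -1.69, against -0.52, -1.37 and -1.20 in pairs 2 to 4. Dom/Dom replicate 1 was the lowest array for Sox10, at 9.98. Whether the Sox10 difference and the median over the 8 genes are related was not tested. A probe set for the Dom transcript does not check the genotype, since a frameshift transcript can still be made. Erbb3, a neuregulin receptor, differed by -1.57 and Cdh19, a cadherin of Schwann cell precursors, by -4.25 (limma adjusted p = 0.0214 and 0.00166). Without any 1 array of replicates 3 and 4 the adjusted p of Erbb3 lay between 0.0573 and 0.0862. The blocked calls of Sox10, Erbb3, Tfap2a, Cdh6, Mef2c, Prrx1, Myl1, Pou4f1 and Krt8 were each lost without pair 3 or pair 4 (adjusted p from 0.0772 to 0.266). Those of Prrx1 and Myl1 were also lost without pair 2 (0.0646 and 0.0744). The blocked calls of Cdh19 (0.000248 to 0.00408) and of the mural gene Rgs5 (0.00125 to 0.0484) held without any 1 pair.

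**Figure D4:**
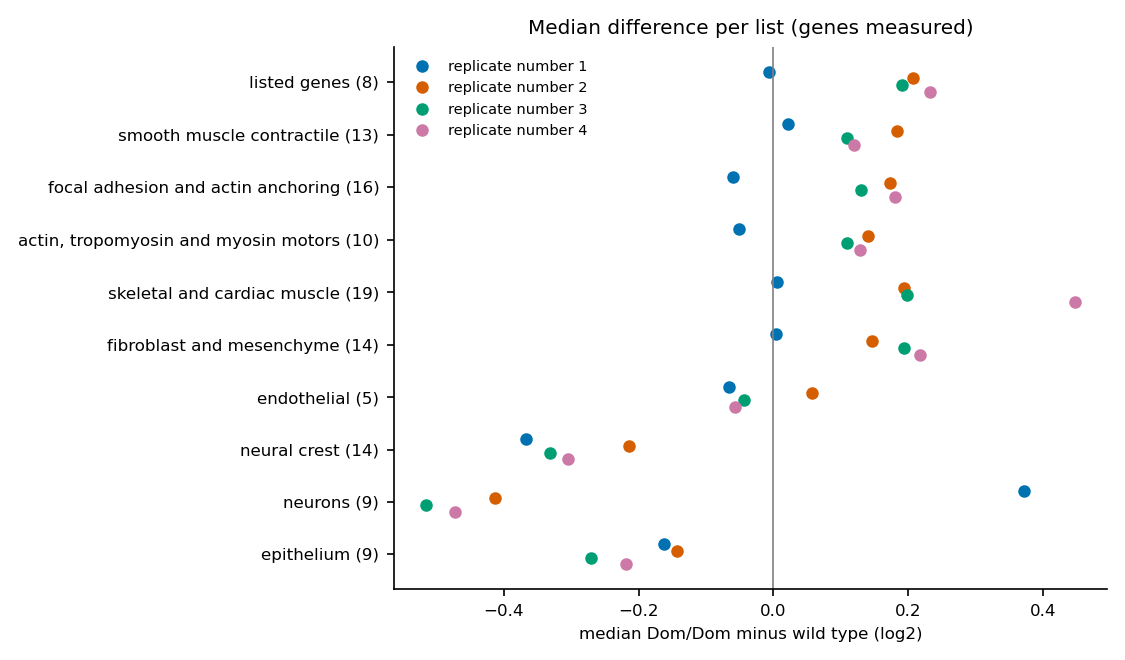
Median Dom/Dom minus wild type (log2) over the measured genes of each list, per pair of same-numbered arrays; each point is 1 pair, coloured by replicate number, and numbers in brackets are the genes measured. In pair 1 the 8 listed genes lie at -0.0063 and the skeletal and cardiac muscle genes at 0.0051, while in pairs 2 to 4 they lie between 0.19 and 0.45.

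Across the 8 arrays, the levels of Actn1 ran closest to the mean of the other 7 genes (Pearson r = 0.89, n = 8 arrays), and those of Mylk did not follow it (r = -0.050). Myocd had r = 0.78, Cnn2 0.71, Vcl 0.70, Des 0.65, Lmod1 0.64 and Csrp1 0.58. These are descriptions of arrays that share genotype and replicate number. Among 1678 other genes with an SD of at least 0.2 over the arrays, the 5 whose levels ran most like the mean of the 8 genes were Slc40a1 (r = 0.95), C1qtnf3, Serpinb2, F11r and Notum (r = 0.92 each). That mean was itself higher in every Dom/Dom array than in every wild-type array, so the choice favours genes higher in Dom/Dom. The genotype differences and adjusted p-values of these 5 genes are therefore no separate support for the pattern.

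Slc40a1, the iron exporter gene, had levels of 9.52, 9.497, 9.87 and 10.06 in Dom/Dom replicates 1 to 4, against 9.02, 8.36, 8.77 and 8.99 in wild type. Its groups did not overlap, and wild-type replicate 2 was the lowest array, as the choice by likeness to the 8 genes favours. It rose by 0.95 (limma adjusted p = 0.0412; 0.0533 to 0.154 without any 1 of Dom/Dom replicates 2 to 4 or wild-type replicates 3 and 4). Notum, a Wnt feedback inhibitor, differed by 0.61 (limma adjusted p = 0.0512; 0.0656 with the block). Serpinb2, a plasminogen activator inhibitor, differed by 0.33 (limma adjusted p = 0.232; 0.0369 with the block, and 0.0799 to 0.244 in that fit without any 1 of pairs 2 to 4), C1qtnf3 by 0.36 (adjusted p = 0.552) and the junction gene F11r by 0.31 (adjusted p = 0.701).

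**Figure D5:**
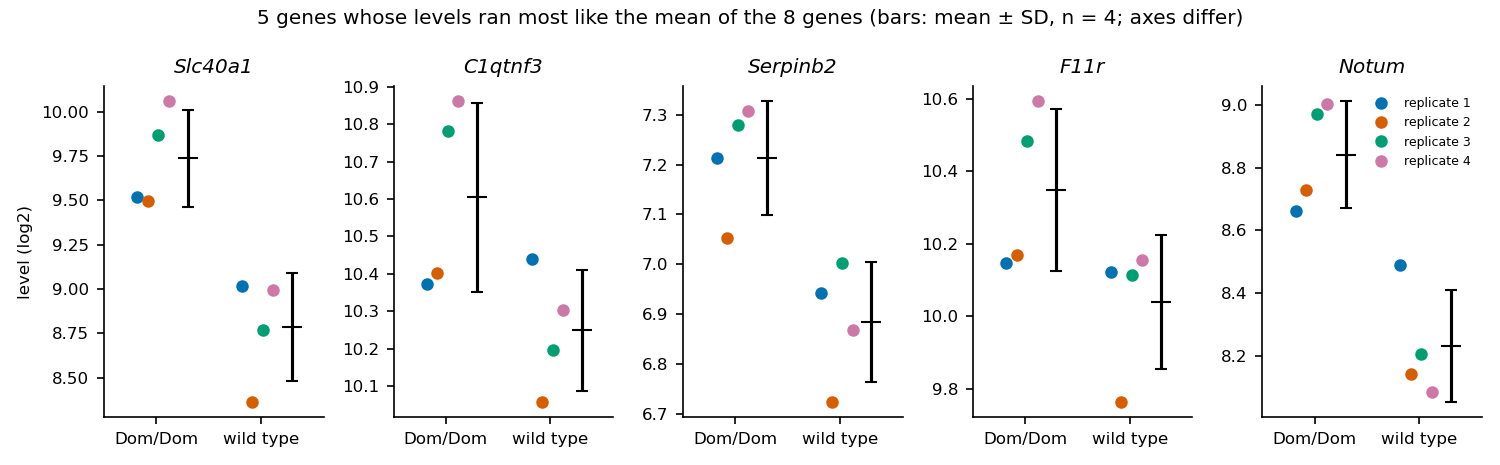
Log2 levels of the 5 genes whose pattern over the 8 arrays was most like the mean of the 8 smooth muscle and anchoring genes, with Dom/Dom left of wild type; points are arrays, coloured by replicate number, bars are the mean ± SD (n = 4), and the axes differ and do not start at 0. In Slc40a1, C1qtnf3, Serpinb2 and F11r wild-type replicate 2 is the lowest array, which the choice favours, since it is also lowest in the mean they were matched to.

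For all 6855 genes the test called 33, of which 28 fell and 5 rose in Dom/Dom, and 103 with the replicate block. Array medians lay between 8.60 and 8.78, and 0 pairs of arrays were identical. Over all probe sets, any pair of arrays correlated at 0.969 to 0.994.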

How the data were processed

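Each of the 8 Affymetrix Mouse Gene 1.0 ST arrays had a column of deposited log2 values, 1 per probe set. The submitters' processing notes name the tools RMA and Partek, with versions not given in the sources used here. In RMA, background is adjusted, arrays are scaled to each other and probes are condensed into log2 values, in which differences of dim probe sets come out too small. Precision is limited by the number of arrays.

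Of 16381 probe sets in the table used here, 7416 had 1 gene symbol in the platform annotation, 509 several and 8456 none. Symbols were updated by gene identifier in a RefSeq table (GRCm38.p6), which matched 6829 genes. The brightest probe set over all arrays stood for each of the 6855 genes. The test was limma's moderated test (limma 3.58.1, R 4.3.3), two-sided, with genotype alone in the model, Benjamini-Hochberg adjustment over all genes and a threshold of 0.05. The fit without a block was tested on simulated arrays, drawn independently of each other. The fits with a block were not tested in this way.

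The genes, lists and tests were chosen with earlier results of these data known. Lists covered paralogs and partners, smooth muscle contractile genes and regulators, focal adhesion, actin and motors, SRF targets, striated muscle, pericytes, endothelium, fibroblasts, neural crest, neurons and epithelium. Genes were named by rule: the listed genes, Sox10, all measured paralogs and partners, list members past the threshold without or with the block (otherwise the 2 largest differences), and the 5 genes of most similar pattern.

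Deviations from the genotype means correlated between same-numbered arrays at 0.47, 0.58, 0.61 and 0.67. All exceed 0.1, so the numbers were treated as pairs, from the data and not from a label. Unlike numbers correlated less, at 0.14 and 0.11 between replicates 1 and 2 and at 0.21 and 0.38 between 3 and 4. These values exceed 0.1 too, so that limit alone does not set same-numbered arrays apart from arrays of the same set of replicates. Alternatives covered blocks, scaling, filters, probe sets, array weights, the spread estimate and left-out arrays.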

Additional observations from a re-analysis of the deposited data

Results flagged for a closer look

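Of 78 sets of 4 arrays (39 named genes, 2 genotypes), 6 held a single array far from the other 3, where chance gives about 1 in 20, or 3.9. Among the 8 genes this was Cnn2, low in wild-type replicate 2 at 13.30, against 13.58 to 13.61 in the other wild-type arrays. Csrp2, the paralog of Csrp1, was low in wild-type replicate 1 at 11.93 (others 12.01 to 12.02). F11r was low in wild-type replicate 2 at 9.76 (others 10.11 to 10.16), and Myl1 was low in wild-type replicate 1 at 7.14 (others 8.19 to 8.35). In Dom/Dom, Edn1 was high in replicate 4 at 11.51 (others 11.29 to 11.31), and Erbb3 was low in replicate 1 at 10.03 (others 10.80 to 10.96).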

How the results depend on the processing

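The 8 genes had 192 values under 24 alternatives, of which 191 lay above 0 and 6 passed the threshold; the exception was Mylk within replicates 3 and 4 (-0.037). Myocd passed with the replicate number as a random block (0.63, adjusted p = 0.0128), with the set of replicates as a block (0.63, 0.0283), with array weights (0.68, 0.0458) and within replicates 3 and 4 (0.80, 0.00739). So 1 of the 8 passed in each of these 4 settings, in which 267, 116, 190 and 352 of all 6855 genes passed. Over single arrays and pairs left out, Myocd ranged from 0.48 to 0.77 and Actn1 from 0.17 to 0.30. In these fits 0 to 2 of the 8 passed. The 2 passed with the replicate block and without pair 1, where 475 of all 6855 genes did. The replicate block itself changed no call among the 8. Within replicates 1 and 2, and within 3 and 4, Actn2 differed by 0.12 and 0.53 and Diaph3 by 0.13 and 0.49. In the same 2 sets Edn1 differed by 0.13 and 0.51 and C1qtnf3 by 0.14 and 0.57. Within 3 and 4 all 4 of these passed (limma adjusted p from 0.0121 to 0.0312), as did 352 of all 6855 genes. With arrays centred on their median, pair 4's median over the 8 genes was 0.10, against -0.13 over all genes. Without centring these were 0.23 and 0.00070, so the median over all genes shifted as well.

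The count of 33 genes was 103 with the replicate block, 267 with the number as a random block, 116 with the set block, 190 with array weights, 4 over every probe set, 4 within replicates 1 and 2, and 352 within replicates 3 and 4. It ranged from 10 to 51 with single arrays left out; with the block and without pairs 1 to 4 in turn it was 475, 112, 15 and 13. The counts just given are for the same settings as the list counts that follow. They are over all 6855 genes, except that over every probe set, which is a count among 16381 probe sets. Of the 131 genes measured in all lists 3 passed, the neural crest genes Sox10, Erbb3 and Cdh19, against 0.481% of all genes. That count was 11 with the replicate block, 11 with the set block, 20 with the random block, 20 with array weights, 1 over every probe set, 1 within replicates 1 and 2, 38 within replicates 3 and 4, and 1 to 41 with arrays or pairs left out. Directions turned for small differences: Csrp2 with median centring (-0.025, where the median over all genes was -0.062), Fos (-0.078) and Pecam1 (0.045) within replicates 1 and 2. With arrays or pairs left out, Ctnna3 ran from -0.074 to 0.046 (-0.067 to 0.039 over single arrays), Mrtfa from -0.0017 to 0.17, Mrtfb from -0.16 to 0.089 and Pecam1 from -0.097 to 0.020 (0.015 with the block and without pair 4). The causes were not tested. The blocked fits without a pair were chosen after seeing the data. With 1 letter between CC and GG allowed to be other than A or T, Cnn2 and Vcl were still the 2 genes with a CArG box. In that setting 9.98% of windows held one. Mismatches in CC or GG were not searched.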

Other observations

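Targets of SRF and immediate early genes, several of which serum induces through SRF, were described as a list of their own. Of 7 measured, of 23 listed, 0 passed without or with the replicate block, and all 7 differences lay above 0. Their median was 0.14 (0.078 with arrays centred on their median, against -0.062 over all genes). In pair 1 the median was -0.076 and 1 of the 7 was higher in Dom/Dom, and in pairs 2 to 4 all 7 were higher, with medians of 0.18, 0.24 and 0.25. Edn1, which encodes the vasoconstrictor peptide endothelin 1, averaged 11.35 ± 0.11 in Dom/Dom cells and 11.03 ± 0.22 in wild-type cells (SD, n = 4; difference 0.32, limma adjusted p = 0.494). Fos, a subunit of the AP-1 factor, differed by 0.20 (95% interval -0.19 to 0.60, adjusted p = 1.00). Vcl belongs to this list too, and without it the median of the other 6 was also 0.14.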
